A study of Nothobranchius furzeri with 16 samples.

Results

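Brain RNA of the African turquoise killifish (Nothobranchius furzeri), an annual fish with a short life span, was compared between 26 and 6 weeks of age by RNA sequencing. The comparison used 6 of the 16 libraries of the series, those numbered 2, 3 and 4 at each age, so that 3 libraries of old fish stood against 3 of young fish. All came from males of the strain MZM-04/10p, were described as brain, and were made with the same Illumina TruSeq RNA kit. The sources name no treatment or genetic change in either group. For the old samples the titles carry the number 22 but the age field gives 26 weeks, which is the age used here. Nothing in the labels ties libraries of 1 age to different fish, and the p-values below therefore refer to variation among libraries, some of which may be technical. The 2 libraries numbered 1 stood far from the rest and served only as a separate pair. Counts per gene were scaled to counts per 1000000 (CPM) with each library's own total, and the 16286 of 26739 genes with a mean of at least 1 CPM over the 6 libraries were tested. The last gene inside that limit, Nfu_g_1_017989, had 69 counts over the 6 libraries and the nearest one outside it, Nfu_g_1_017707, had 68.

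In RNA sequencing of this kind a long transcript is cut into more fragments than a short one, so that a CPM value depends on both the number of RNA molecules and their length. The brain holds long and short messages of very different function. Many ion channels, scaffold proteins and adhesion molecules of neurons have long transcripts, whereas ribosomal proteins and subunits of the respiratory chain have short ones. The teleost brain also keeps dividing progenitors in adult life, whose activity is known to decline with age in killifish.

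Library totals lay between 9461792 and 12271086 counts at 26 weeks and between 11181136 and 12810377 counts at 6 weeks. Neuronal, myelin and astroglial genes were abundant in each library, and the 50 genes of the synaptic vesicle list summed to 7422 to 7866 CPM at 26 weeks and 7961 to 8682 CPM at 6 weeks. Over the tested genes, the median absolute difference between 2 libraries of 1 age was 0.16 to 0.27 on the log2 scale at 26 weeks and 0.13 to 0.17 at 6 weeks. It was 0.28 to 0.43 between libraries of different ages. The replicate 1 libraries differed from the other libraries by a median of 0.67 to 0.82, but from each other by only 0.28. Within the 26-week group replicate 3 stood apart. It differed from replicates 2 and 4 by medians of 0.27 and 0.25, whereas those differed from each other by 0.16. Values without it are given for the changes by length and level, the neuronal and ribosomal lists, detection and spread.

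Many transcripts differed between the 26-week and 6-week libraries, in both directions. In edgeR's quasi-likelihood test with TMM scaling and Benjamini-Hochberg adjustment at 0.05, 2635 genes were higher and 2628 lower at 26 weeks than at 6 weeks, together 32.3% of the genes tested, with 16.2% higher and 16.1% lower. The falls were the larger changes. Genes called lower fell by a median of 0.93 on the log2 scale, and 1179 of the 2628 fell by more than 1. Genes called higher rose by a median of 0.55, and 401 of the 2635 rose by more than 1. The genes called higher had longer transcripts, with a median of 3986 bases, than the genes called lower, with a median of 1891 bases. They were also more abundant, with median levels of 46.0 CPM for genes called higher and 13.2 CPM for genes called lower. Over all genes tested the median transcript length was 2949 bases and the median level 17.3 CPM. Transcript length here and below is the length implied for a gene by its counts and deposited RPKM (counts scaled by length and library total). It may cover only part of a transcript, and how complete these lengths are was not tested.

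The balance of rises and falls depended on the scaling. TMM centred the genes on a median log2 change of -0.002. Scaled by library totals alone, the median gene stood at -0.13, and 1582 genes (9.71%) were called higher and 3623 (22.2%) lower, together 32% of the genes tested, so that the share of higher among all calls was 30.4% in place of 50.1%. In CPM by own totals, the 26-week libraries were all above the 6-week libraries for 16.8% of genes and all below them for 33.3%. The 100 most abundant genes took 23.3%, 22.9% and 24.3% of counts at 26 weeks and 21.7%, 20.3% and 20.4% at 6 weeks. All 3 old libraries lay above all 3 young ones (two-sided exact permutation p = 0.10, the smallest that 3 against 3 allows, and 0.15 after adjustment over the 15 library measures tested). Fold changes below are those with TMM scaling unless stated, and with own totals they lie about 0.13 lower, so that medians between 0 and 0.13 change sign. Without 6-week replicate 3 the test called 2531 genes, and without 6-week replicate 4 it called 2073, against 5263 with all 6 libraries.

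Short transcripts were lower at 26 weeks and long ones slightly higher with TMM scaling, whereas with own totals the long ones were level, at a median log2 change of -0.01 in the longest decile and -0.42 in the shortest. When the genes were ordered by this implied length and divided into deciles (10 groups of equal size), the shortest decile, of 18 to 765 bases, had a median log2 change of -0.29. The next decile had -0.34. The median was at 0.00 in the fifth decile, of genes around 2656 bases, reached 0.09 in the seventh, and was 0.12 in each of the last 2 deciles, the longest of which began at 7330 bases. Of the shortest decile, 8.60% of genes were called higher and 27.2% lower. Of the longest decile, 25.8% were called higher and 8.35% lower. The median change of the longest decile minus that of the shortest was 0.41 on the log2 scale, and it was 0.41 with own totals too. Without 26-week replicate 3 this difference was 0.29. The spread of the changes also depended on length, with an interquartile range of 0.89 in the shortest decile and 0.47 in the longest.

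**Figure D1:**
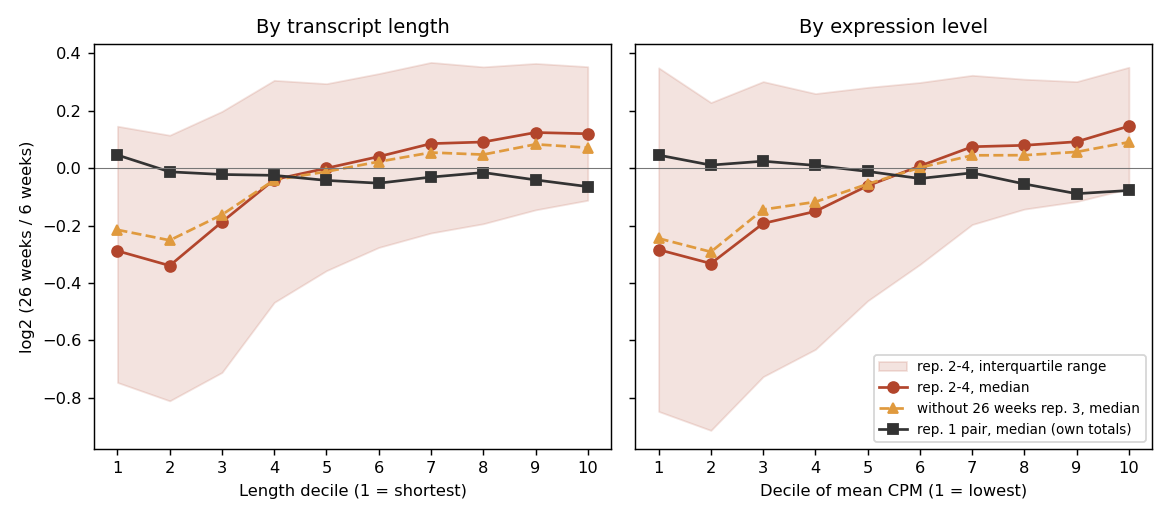
The vertical axis is the log2 ratio of 26 over 6 weeks, and the horizontal axis is the decile of genes by transcript length (left panel) or by mean CPM (right panel). Circles are medians over the 3 libraries per age with the interquartile range of genes shaded, and triangles are medians without 26-week replicate 3, both with TMM scaling. Squares are medians of the replicate 1 pair by own totals. From the first to the last decile the circles go from -0.29 to 0.12 for length and from -0.28 to 0.15 for level. They are lowest in the second decile, at -0.34 and -0.33, whereas the squares stay between -0.09 and 0.05.

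The same contrast was then taken in each library, as the median deviation of the longest decile from the gene means minus that of the shortest decile. It was 0.06, 0.48 and 0.07 in 26-week replicates 2, 3 and 4, and -0.15, -0.22 and -0.22 in the 6-week replicates 2, 3 and 4. The groups did not overlap, but the value of 26-week replicate 3 was far above that of the other 2 old libraries. The means were 0.20 ± 0.24 at 26 weeks and -0.20 ± 0.04 at 6 weeks (SD, n = 3 per age), a difference of 0.40 with replicate 3 and 0.26 without it (two-sided exact permutation p = 0.10, n = 3 per age, the smallest that this design allows). In CPM by own totals, the scale of these deviations, the difference lay in the short genes. Their median deviations were -0.07, -0.41 and -0.11 in the old libraries, and 0.10, 0.24 and 0.26 in the young ones. The median deviations of the longest decile overlapped on this scale, at -0.02, 0.06 and -0.04 in the old libraries and -0.04, 0.02 and 0.04 in the young ones. With TMM scaling the median log2 change was 0.12 in the longest decile and -0.29 in the shortest, so this split depends on the scaling.

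The replicate 1 pair did not show the same difference. Its length contrast was 0.98 in the 26-week library and 1.14 in the 6-week library, so both libraries were shifted to long transcripts by far more than any other and the old one was the lower by 0.16. The longest decile of genes took 22.7% of its counts at 26 weeks and 23.4% at 6 weeks, against 15.5% to 17.3% in the other 6 libraries. Between these 2 libraries the median log2 ratio was 0.05 in the shortest decile and -0.06 in the longest. Individual genes fared differently from the medians. The replicate 1 pair had the same direction for 2075 of the 2635 genes called higher (78.7%) and for 1904 of the 2628 called lower (72.5%). Of the genes not called, 44.2% were higher in that pair. The share differed with length. Genes not called were higher in that pair in 56.4% of the shortest and 34.3% of the longest decile, so that the background shifted with length in the same sense. Among genes called lower, 60.7% of the shortest decile and 82.4% of the longest decile were lower in the replicate 1 pair as well. Among genes called higher, 82.1% of the shortest decile and 70.2% of the longest decile were higher there.

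**Figure D2:**
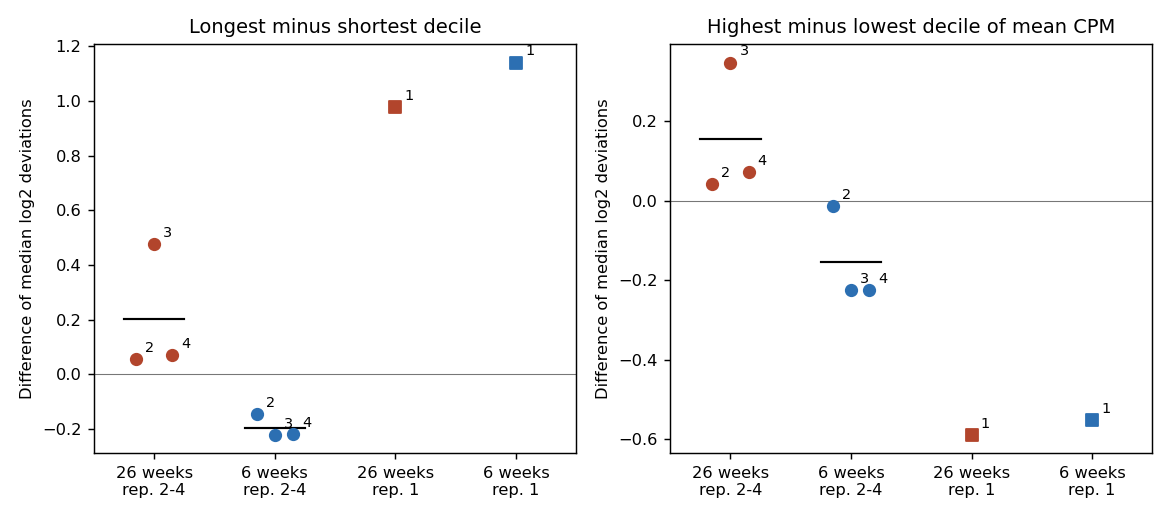
Each point is 1 library, marked with its replicate number, and the vertical axis is the median log2 deviation of the longest decile minus that of the shortest (left panel) or of the highest decile of mean CPM minus that of the lowest (right panel). Circles are replicates 2 to 4 with their mean as a bar, and squares are replicate 1. The 26-week circles lie between 0.06 and 0.48 for length and above the 6-week circles, which lie between -0.22 and -0.15, while both squares lie at 0.98 or above.

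Abundant transcripts were slightly higher and rare ones lower at 26 weeks, with medians of 0.02 and -0.41 in the highest and lowest level decile by own totals. In the lowest decile of mean CPM, which reached up to 1.96 CPM, the median log2 change was -0.28, and in the next decile it was -0.33. It crossed 0 in the sixth decile and was 0.15 in the highest, of genes above 124 CPM. The share of genes called higher was 4.3% in the lowest decile and 33.8% in the highest. The share called lower was 12.0% in the lowest decile, peaked at 21.1% in the fourth and was 10.3% in the highest, and low counts also limit how many genes the test can call. The difference of medians between the highest and the lowest decile was 0.43, and 0.35 without 26-week replicate 3. It fell to 0.12 when genes were ordered by RPKM, which divides the level by transcript length, and recomputed with each library's own total. In single libraries the contrast was 0.04, 0.35 and 0.07 at 26 weeks and -0.01, -0.22 and -0.23 at 6 weeks, with the groups again apart (two-sided exact permutation p = 0.10, n = 3 per age, the smallest possible). In the replicate 1 pair it was -0.59 at 26 weeks and -0.55 at 6 weeks.

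Length and level were related, since the longest decile of genes had a median level of 59.4 CPM and the shortest 8.53 CPM (Spearman's rho = 0.35 over 16286 genes, which are not independent). Both were therefore divided into 3 groups at once. Among the genes of low level, the median log2 change was -0.43 for the 2641 short ones, -0.14 for those of middle length and -0.05 for the long ones. Among the genes of high level it was -0.06 for the 949 short ones, 0.08 for those of middle length and 0.14 for the 2786 long ones. At middle level the values were -0.20, 0.04 and 0.09. Without 26-week replicate 3 the medians for short, middle and long genes were -0.32, -0.14 and -0.09 at low level, -0.15, 0.03 and 0.06 at middle level, and -0.04, 0.05 and 0.09 at high level. In both cases the median fell with shorter length at each level and with lower level at each length. Short genes of low level were called higher in 4.13% and lower in 21.8% of cases, and long genes of high level were called higher in 30.9% and lower in 6.86%. The medians of these 9 groups in the replicate 1 pair lay between -0.09 and 0.05 without such an order.

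Genes of neurons divided by the length of their transcripts. Over 5 lists of neuronal genes (synaptic vesicles, transmitter receptors, voltage-gated channels, adhesion and guidance, and the cytoskeleton), 34 of 205 tested genes were called higher and 53 lower. Of the 69 genes shorter than the median gene, 1 was called higher and 35 lower, with a median log2 change of -0.87. Of the 136 longer ones, 33 were called higher and 18 lower, with a median of 0.15. Of the long neuronal genes 24.3% were thus called higher and 13.2% lower, close to 21.6% and 10.4% of all long genes tested. Of the short ones 1.45% were called higher and 50.7% lower, against 10.7% and 21.8% of all short genes tested. Over all genes tested the medians were -0.15 for short and 0.10 for long genes. Without 26-week replicate 3 the neuronal medians were -0.66 for the short and 0.05 for the long genes. They were -0.10 and -0.11 in the replicate 1 pair. Left out 1 at a time, 6-week replicate 4 brought the neuronal calls down to 16 higher and 26 lower, and 6-week replicate 3 to 17 and 31. Leaving out 26-week replicate 4 gave 34 lower and leaving out 6-week replicate 2 gave 21 higher. Over all genes tested, 1007 were called higher and 1065 lower without 6-week replicate 4, in place of 2635 and 2628.

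The synaptic vesicle list had 5 genes called higher and 18 lower among 46, and 17 of these 18 were short. RAB3A, a small GTPase of synaptic vesicles with 660 bases, had 4.59, 1.59 and 3.42 CPM at 26 weeks and 8.51, 16.9 and 16.3 CPM at 6 weeks (log2 change -1.97 ± 0.36 SE, edgeR adjusted p = 0.0047). The ages did not overlap, with 26-week replicate 3 the lowest library and 6-week replicate 2 the lowest of its age. The replicate 1 pair held 7.04 CPM at 26 weeks and 5.88 CPM at 6 weeks. CABZ01061873.1, named after human SYN2, a vesicle phosphoprotein, has 5543 bases. It rose by 0.45 ± 0.08 SE (adjusted p = 0.0046) and was at 188 CPM at 26 weeks and 190 CPM at 6 weeks in the replicate 1 pair.

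Long channel transcripts were among those called higher. Of 35 voltage-gated channel genes, 9 were called higher and 5 lower, and all 9 were longer than the median gene. Of the 28 long channel genes 32.1% were thus called higher, against 21.6% of all long genes tested and 25.8% of the longest decile. UNC80, part of the sodium leak channel complex, has 15712 bases. It had 121, 155 and 122 CPM in the 26-week libraries, against 90.3, 91.7 and 80.9 CPM in the 6-week libraries. Replicate 3 was the highest of the old libraries, and the log2 change was 0.73 ± 0.12 SE (edgeR adjusted p = 0.0034) with it and 0.59 without it. The replicate 1 libraries were at 195 CPM at 26 weeks and 186 CPM at 6 weeks. The potassium channels KCNC2 and KCND2, with transcripts of 11186 and 12125 bases, rose by 0.69 and 0.64 on the log2 scale (adjusted p = 0.0013 and 0.0020), and their log2 ratios in the replicate 1 pair were -0.04 and 0.02. Among transmitter receptors, 7 of 29 genes were called higher and 4 lower. Of the 19 long ones 31.6% were called higher and 5.26% lower, against 21.6% and 10.4% of all long genes tested. Of the 10 short ones 10% were called higher and 30% lower, against 10.7% and 21.8% of all short genes tested. GABRB2, a GABA receptor subunit counted here on 1089 bases, fell by 0.98 ± 0.19 SE (adjusted p = 0.0064).

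Adhesion and guidance genes, with a median length of 5967 bases, had 7 called higher and 12 lower among 66. Of the 53 long ones 13.2% were called higher and 9.43% lower, against 21.6% and 10.4% of all long genes tested. Of the 13 short ones none was called higher and 53.8% were called lower, against 10.7% and 21.8% of all short genes tested. RELN, which encodes the secreted guidance protein reelin, went against its length. With 10660 bases it had 21.4, 18.1 and 24.3 CPM at 26 weeks and 34.4, 47.5 and 46.3 CPM at 6 weeks (log2 change -0.87 ± 0.15 SE, edgeR adjusted p = 0.0036). Of 29 genes of neurofilaments and microtubules, 6 were called higher and 14 lower. Of the 17 long ones 35.3% were called higher and 47.1% lower, with a median log2 change of -0.26. The long genes of this list were thus called lower more often than the 10.4% of all long genes tested. Of the 12 short ones none was called higher and 50% were called lower. MAP1A, a microtubule-associated protein of mature neurons with 17252 bases, rose by 0.84 ± 0.10 SE (adjusted p = 0.00088). DPYSL5, listed as dpysl5a with 3762 bases and expressed in differentiating neurons, fell by 0.70 ± 0.09 SE (adjusted p = 0.0010). By own totals its log2 change was -0.83, and its log2 ratio in the replicate 1 pair was -0.70. This list had a median log2 ratio of -0.50 in the replicate 1 pair. In the other libraries its median was -0.57 by own totals and -0.44 with TMM scaling.

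Of all short genes tested 10.7% were called higher and 21.8% lower, and of the highest level decile 33.8% and 10.3%. Ribosomal proteins ran against the trend by length. With median levels of 2051 CPM for the small and 1786 CPM for the large subunit, they ran with the trend by level. Their transcripts had median lengths of 873 bases for the small and 950.5 bases for the large subunit, and yet 51 of 61 were called higher at 26 weeks and none lower. That was 24 of 27 for the small subunit and 27 of 34 for the large one, with median log2 changes of 0.49 and 0.46, against -0.002 for all genes tested. The count was 52 without 26-week replicate 3, 34 without 6-week replicate 3, 39 without 26-week replicate 4 and 29 without 6-week replicate 4, and none was called lower in any of these fits. With own totals 18 small subunit genes were called higher and none lower, and 21 large subunit genes were called higher and 2 lower. RPS25, a small subunit protein listed as rps25 with 372 bases, had 3788, 4165 and 4131 CPM at 26 weeks and 2695, 2245 and 2417 CPM at 6 weeks, with no overlap. Its log2 change was 0.84 ± 0.11 SE (edgeR adjusted p = 0.0014), and the replicate 1 pair held 2943 CPM at 26 weeks and 1852 CPM at 6 weeks. RPS24, rpl32, RPL22 and rpl30 rose by 0.73, 0.73, 0.71 and 0.66. In the replicate 1 pair 55 of the 61 genes were higher at 26 weeks, with medians of 0.32 and 0.34 for the small and large subunit.

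These 61 genes held 12.3%, 12.3% and 13.3% of all counts in the 26-week libraries, against 10.6%, 9.57% and 9.84% in the 6-week libraries. The 23 of them in the shortest decile took 5.06%, 5.16% and 5.36% of counts at 26 weeks and 4.20%, 3.74% and 3.89% at 6 weeks. The other genes of the shortest decile moved the other way, with 6.57%, 5.81% and 6.61% at 26 weeks and 6.87%, 6.90% and 6.99% at 6 weeks. The summed share of the shortest decile therefore overlapped between the ages, with 11.6%, 10.96% and 12.0% at 26 weeks and 11.1%, 10.6% and 10.9% at 6 weeks, although its median gene was lower in the old libraries. The 31 tested genes of the mitochondrial ribosome, of similar length (median 1063 bases) but much lower level, had 1 called higher and 3 lower and a median of -0.12. Of the 28 short ones among them 3.57% were called higher and 10.7% lower, with a median of -0.13. Of all short genes tested 10.7% were called higher and 21.8% lower, with a median of -0.15.

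Genes of cell division fell at any length. Over all genes tested 16.1% were called lower and 16.2% higher. Of 74 tested genes of the cell cycle and replication list, 56 were called lower and 3 higher, with a median log2 change of -1.24. The median was -1.69 for the 28 short and -1.05 for the 46 long members, and -1.01 for the list in the replicate 1 pair, where 6 of 74 genes were higher. Without any 1 library, 48 to 57 members were called lower. Whether there were fewer dividing cells or less of these transcripts per cell cannot be told apart in RNA of whole tissue. PLK1, a kinase of mitosis, had 3.46, 4.76 and 1.96 CPM at 26 weeks and 24.1, 19.4 and 21.9 CPM at 6 weeks (log2 change -2.58 ± 0.28 SE, edgeR adjusted p = 0.00064). CENPF, a kinetochore protein with a transcript of 9610 bases, lay in the longest decile. It had 6.74, 7.40 and 5.70 CPM at 26 weeks and 23.8, 28.3 and 30.8 CPM at 6 weeks, and the replicate 1 pair showed 6.96 CPM at 26 weeks and 19.3 CPM at 6 weeks. KIF11, a spindle motor, and mcm6, part of the replicative helicase, fell by 2.48 and 1.82 on the log2 scale (adjusted p = 0.00021 and 0.00028).

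Progenitor genes fell with them. In the neurogenesis and progenitor list 17 of 29 genes were called lower and 2 higher, with a median of -0.75. EZH2, a histone methyltransferase of progenitor cells, fell by 1.14 ± 0.12 SE (edgeR adjusted p = 0.00059), and the nuclear lamina gene lmnb1 fell by 0.75 ± 0.09 SE (adjusted p = 0.0010). FABP7, a fatty acid binding protein of radial glia with 399 bases, fell to 800, 560 and 761 CPM at 26 weeks, against 1525, 1485 and 1394 CPM at 6 weeks. Its log2 change was -0.93 ± 0.12 SE (adjusted p = 0.0015). In the same glial list, of 26 genes with 4 called higher and 6 lower, vim, an intermediate filament of glia, rose by 0.59 and SLCO1C1, a thyroid hormone transporter, by 0.81. Of 21 myelin and oligodendrocyte genes 5 were called in each direction. Over all genes tested the shares called were 16.2% higher and 16.1% lower. CNP, a myelin enzyme listed as CNP (2 of 2), fell by 1.14 ± 0.12 SE (adjusted p = 0.00051).

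**Figure D3:**
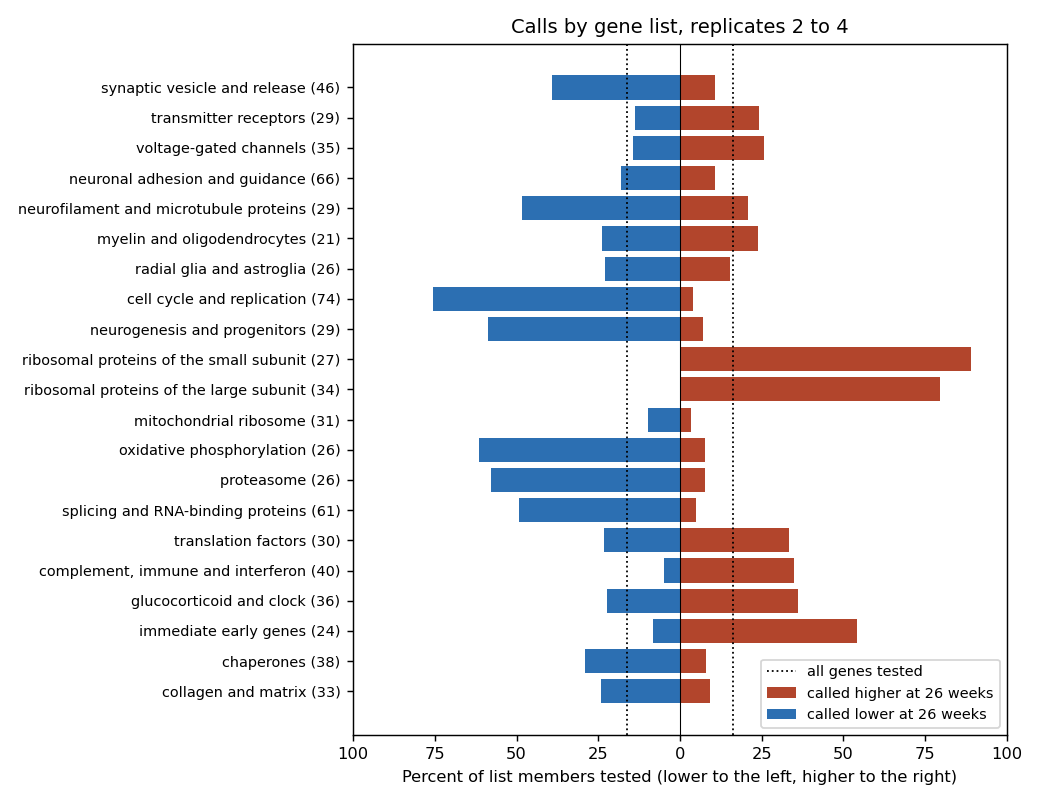
Bars give the percent of tested members of each gene list called higher (to the right) or lower (to the left) at 26 weeks, with the number of members tested in parentheses and dotted lines at 16.2% and 16.1%, the shares of all genes tested. The cell cycle list has 56 of 74 members called lower, and the ribosomal lists have 24 of 27 and 27 of 34 called higher.

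Calls in the lists of the respiratory chain, the proteasome and splicing were mostly falls. Over all genes tested 16.1% were called lower and 16.2% higher, and of those shorter than the median gene 21.8% and 10.7%. Of 26 oxidative phosphorylation genes (median 1102 bases) 16 were called lower and 2 higher, with a median log2 change of -0.35 and of -0.20 in the replicate 1 pair. ATP5B, the catalytic subunit of ATP synthase, had 624, 561 and 667 CPM at 26 weeks and 1037, 1021 and 1104 CPM at 6 weeks. Of 26 proteasome genes 15 were called lower and 2 higher (median -0.37, and -0.21 in the replicate 1 pair). PSMD11, a lid subunit, fell to 64.9, 69.0 and 65.4 CPM at 26 weeks, against 110, 109 and 106 CPM at 6 weeks (log2 change -0.58 ± 0.08 SE, edgeR adjusted p = 0.0018). Without 6-week replicate 4 the proteasome list had 9 genes called lower, and all genes tested had 1065 in place of 2628. Of 61 genes of splicing and RNA-binding proteins 30 were called lower and 3 higher, with a median of -0.59 for the 33 short and -0.11 for the 28 long members. The spliceosome genes snrpd2 and prp19 fell by 0.71 and 0.67. The replicate 1 pair was higher at 26 weeks for only 4 of the 26 oxidative phosphorylation genes, 3 of the 26 proteasome genes and 12 of the 61 splicing genes.

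Calls in the immediate early and immune lists were mostly rises. Over all genes tested 16.2% were called higher and 16.1% lower, and of those longer than the median gene 21.6% and 10.4%. Of 24 immediate early genes 13 were called higher and 2 lower, with a median log2 change of 0.52 and of 0.31 in the replicate 1 pair. DUSP1, a phosphatase that ends MAP kinase signals, had 80.3, 74.6 and 102 CPM at 26 weeks and 43.3, 34.6 and 35.9 CPM at 6 weeks (log2 change 1.30 ± 0.14 SE, edgeR adjusted p = 0.00065). BDNF, a neurotrophin induced by activity, rose by 0.76 ± 0.10 SE (adjusted p = 0.0015). Of 40 genes of complement, immunity and interferon 14 were called higher and 2 lower with a median of 0.38, but the median in the replicate 1 pair was -0.19. Without 6-week replicate 4, 6 of these genes were called higher. The number was 7 or 8 without 6-week replicate 3, 6-week replicate 2 or 26-week replicate 4. Over all genes tested the number called higher went from 2635 to 1007 without 6-week replicate 4 and 1276 without 6-week replicate 3. IRF1, an interferon response factor, had 21.4, 6.66 and 24.7 CPM at 26 weeks and 3.43, 2.77 and 2.23 CPM at 6 weeks, and 10.1 CPM at 26 weeks against 9.95 CPM at 6 weeks in the replicate 1 pair. Its log2 change was 2.76 ± 0.44 SE (adjusted p = 0.0028).

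The translation, chaperone and matrix lists were mixed. Over all genes tested 16.2% were called higher and 16.1% lower. Of genes shorter than the median gene 10.7% were called higher and 21.8% lower, and of longer ones 21.6% and 10.4%. Of 30 translation factors 10 were called higher and 7 lower. The elongation factor genes eef1da and EEF1A1A rose by 0.90 and 0.67 on the log2 scale, and the initiation factor EIF3G by 0.88. Of 38 chaperone genes 3 were called higher and 11 lower. The chaperonin subunit cct6a fell by 0.54, and the co-chaperone BAG3 rose by 0.70. Of 33 collagen and matrix genes 3 were called higher and 8 lower. Fibronectin, listed as fn1b, rose by 0.97, and SPARC and hsp47, which handle collagen, fell by 0.68 and 1.11 (edgeR adjusted p = 0.0018 and 0.0027).

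Several list counts moved when 1 library was left out, and so did the counts over all genes tested. Genes called lower went from 2628 to 1843 without 26-week replicate 4, to 1252 without 6-week replicate 3 and to 1065 without 6-week replicate 4. Those called higher went from 2635 to 1989, 1276 and 1007 in these fits. Without 6-week replicate 3 or 4, the synaptic vesicle list had 11 genes called lower in each case, and without 26-week replicate 4 also 11. Adhesion and guidance genes had 7 called lower without 26-week replicate 4, 5 without 6-week replicate 3 and 3 without 6-week replicate 4. Transmitter receptors had 2 called higher without 6-week replicate 3 or 4 and 4 without 6-week replicate 2. Chaperones had 6 called lower without 6-week replicate 3 or 4, and voltage-gated channels 2 and 1. In collagen and matrix genes there were 5 called lower without 26-week replicate 4, 3 without 6-week replicate 3 and 2 without 6-week replicate 4. Translation factors had 3, 1 and 1 called lower without these same libraries. Myelin genes had 9 called lower without 26-week replicate 2 and 3 without 26-week replicate 4, 6-week replicate 3 or 6-week replicate 4, and glial genes had 3, 1 and 2 without these last 3 libraries.

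The largest changes of named genes were taken among those with the same sign in the replicate 1 pair. Both copies of NR1D2, a nuclear receptor that represses clock genes, rose. Nfu_g_1_020882 had 413, 419 and 284 CPM at 26 weeks and 43.4, 39.5 and 39.9 CPM at 6 weeks (log2 change 3.31 ± 0.16 SE, edgeR adjusted p = 1.43e-05). Nfu_g_1_010257 had 99.0, 85.9 and 59.6 CPM at 26 weeks and 9.13, 11 and 12.5 CPM at 6 weeks (log2 change 3.03 ± 0.19 SE). Reads of such paralogs can be shared, and how the counting treated them is not given in the sources used here. CDKN1A, an inhibitor of cell cycle kinases, rose to 267, 253 and 198 CPM, against 33.8, 34.8 and 34.4 CPM at 6 weeks (log2 change 2.93 ± 0.12 SE, adjusted p = 9.87e-06). VDR, the vitamin D receptor, rose by 2.34 ± 0.17 SE. PER3, a clock gene, fell by 1.75 ± 0.10 SE (adjusted p = 4.06e-05). Its clock and glucocorticoid list of 36 genes had 13 called higher and 8 lower, or 8 higher without 6-week replicate 4. Over all genes tested 16.2% were called higher and 16.1% lower.

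Some of the large changes were of rare transcripts. NDRG1B had 6.74, 0.528 and 0.896 CPM at 26 weeks and 0.156, 0 and 0.0828 CPM at 6 weeks, so that 26-week replicate 2 alone was high, and its call (adjusted p = 0.015) was lost without 6-week replicate 3 or 4 (0.060 and 0.064). The complement gene cfb had 5.43, 2.11 and 3.18 CPM at 26 weeks and 0.312, 0.358 and 0.993 CPM at 6 weeks. SI:CH73-353P21.4 had 3.37, 2.43 and 1.96 CPM at 26 weeks and 0.624, 0.805 and 0.248 CPM at 6 weeks. Among the falls, CDCA7, NDC80, KIF14 and CCNA2, all of dividing cells, fell by 2.86, 2.79, 2.67 and 2.60. SQLE, an enzyme of sterol synthesis, fell to 2.34, 1.69 and 2.20 CPM, against 14.1, 18.2 and 14.8 CPM at 6 weeks (log2 change -2.78 ± 0.21 SE, edgeR adjusted p = 0.00012). CFI, counted on 354 bases, fell by 2.61 ± 0.29 SE. The globin gene hbae1 had 0, 0.211 and 0 CPM at 26 weeks and 3.28, 1.79 and 1.82 CPM at 6 weeks.

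**Figure D4:**
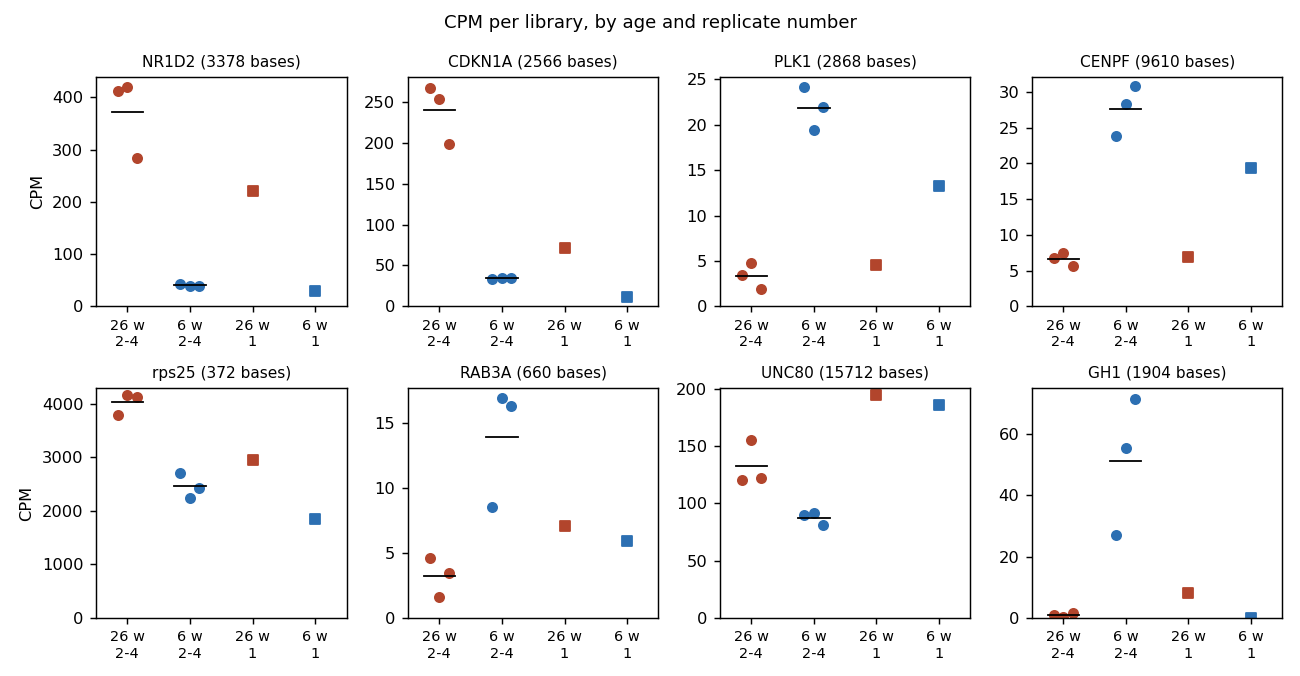
Each panel plots the CPM of 1 gene per library, with 26-week replicates 2 to 4, 6-week replicates 2 to 4, and then the 26-week and 6-week replicate 1 libraries from left to right. Circles are replicates 2 to 4 with their mean as a bar, and squares are replicate 1. RAB3A, UNC80 and GH1 differ between the ages among the circles, but the squares of UNC80 are nearly level (195 CPM at 26 weeks and 186 CPM at 6 weeks), and those of RAB3A and GH1 are higher at 26 weeks.

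Genes at the ends of the length order were taken by lowest p in each direction. In the longest decile, the lipid transporter ABCA1 had 413, 408 and 399 CPM at 26 weeks and 150, 148 and 166 CPM at 6 weeks (log2 change 1.52 ± 0.08 SE, edgeR adjusted p = 2.31e-05), and FAM46D and SNPH, a syntaxin-binding protein of axons, rose by 1.18 and 1.14. ABHD2 and the chromatin remodeller BPTF fell by 1.01 and 0.73 there. In the shortest decile C8orf4 rose by 1.22, and DYNLL2, a dynein light chain, fell by 0.93. PTMS and stmn1b, a stathmin of growing neurons, fell by 1.94 and 2.11 (adjusted p = 0.00035 and 0.00049). Their log2 ratios in the replicate 1 pair were -0.23 and -1.26.

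Among the 10 most abundant named genes, 7 were called higher and none lower, against 33.8% and 10.3% of the highest level decile. The genes called higher included the ribosomal proteins rps25, rps8b, rps7, rpl5b and RPL6. actb1, a cytoplasmic actin, had 10085, 9423 and 8812 CPM at 26 weeks and 11221, 11093 and 10686 CPM at 6 weeks. The groups did not overlap, but the log2 change was -0.09 ± 0.10 SE with TMM scaling (edgeR adjusted p = 0.49) and -0.22 with own totals (adjusted p = 0.075). epd, an ependymin of brain fluid, was at -0.14 ± 0.09 SE (adjusted p = 0.26), and the glial calcium-binding protein s100b at -0.54 ± 0.19 SE (adjusted p = 0.052). rps8b, rps7, rpl5b and RPL6 rose by 0.50, 0.66, 0.44 and 0.38. PABPC1, the poly(A)-binding protein, rose by 0.74, and the elongation factor eef2b by 0.41 (adjusted p = 0.0020 and 0.036). The call of eef2b was lost without any 1 library other than 26-week replicate 3 (adjusted p of 0.066 to 0.11), and those of RPL6 and rpl5b without 6-week replicate 4 (adjusted p = 0.077 and 0.051), RPL6 also without 6-week replicate 3 (0.072).

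Few genes appeared or vanished with age. No gene was at 0 counts in each 6-week library and at 5 or more counts in each 26-week library. One gene met the reverse rule, Nfu_g_1_011606, named HIST1H1A, a linker histone, with 0, 0 and 0 counts at 26 weeks and 6, 5 and 5 counts at 6 weeks. Against the floor of 3 counts over the 3 old libraries, its level was at least 4.79-fold lower at 26 weeks. The replicate 1 libraries had 1 count each. With a minimum of 1 count in place of 5, 28 genes were gained and 57 lost, and with 10 counts none was gained or lost. A limit of 1 CPM, chosen after the data were seen, was crossed upwards by 49 genes (from under it in each 6-week library to at least 1 CPM in each 26-week library) and downwards by 210. At least 1 CPM in each library was met by 14705 genes at 26 weeks and 15668 at 6 weeks. These CPM are by own totals. On that scale 16.8% of tested genes lay wholly above the 6-week libraries at 26 weeks and 33.3% wholly below. The 49 had a median length of 2440 bases and the 210 of 1463 bases. In the replicate 1 pair 40 of the 49 were higher at 26 weeks and 131 of the 210 were lower.

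The numbers of detected genes in these same libraries were also lower at 26 weeks. The expected number of genes with at least 1 count at an equal depth of 9461792 counts was 20259, 19968 and 20150.0 in the 26-week libraries and 20262, 20493 and 20369 in the 6-week libraries. The old libraries averaged 249 genes fewer, and without 26-week replicate 3 the difference of 26 minus 6 weeks was -170 genes. The highest old library lay just under the lowest young one (two-sided exact permutation p = 0.10, n = 3 per age, the smallest possible). With at least 5 counts required, the difference was 548 genes. The replicate 1 pair differed by 84 genes, with 20532 at 26 weeks and 20617 at 6 weeks, and with at least 5 counts by 49 genes in the other direction.

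Spread between libraries was larger at 26 weeks, but not without 1 of the old libraries. The median over the 16286 genes of the SD of log2(CPM + 0.5) was 0.197 among the 3 old libraries and 0.139 among the 3 young ones, a ratio of 1.42. The SD was the larger at 26 weeks in 66.8% of genes. The biological coefficient of variation estimated by edgeR was 17.7% at 26 weeks and 11.3% at 6 weeks. Without 26-week replicate 3 the coefficient at 26 weeks was 11.4%, and without 6-week replicate 2 the coefficient at 6 weeks was 6.86%. The ratio of medians was 0.81 and 2.15 in these cases, but an SD over 2 libraries tends to be smaller than one over 3, and normal values of equal spread would give 0.81 and 1.23. With 4 libraries per age the ratio was 1.001. In 50.0% of genes replicate 3 was the old library farthest from the median of its age, and in 68.2% of the 2039 genes with an SD above 0.5. Such genes numbered 879 at 6 weeks, where replicate 2 was the farthest library in 44.0% of all genes.

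The spread depended on level and length. In the lowest decile of mean CPM the median SD was 0.37 at 26 weeks and 0.30 at 6 weeks, and in the highest decile it was 0.11 and 0.07. The ratio of the 2 ages was 1.22 in the lowest decile and 1.55 in the highest. By length, the median SD was 0.29 at 26 weeks and 0.18 at 6 weeks in the shortest decile, and 0.14 and 0.10 in the longest. Old replicates 2 and 4 differed by a median of 0.34 in the lowest level decile and 0.10 in the highest. The young pairs covered 0.29 to 0.39 in the lowest and 0.07 to 0.09 in the highest, so that this old pair lay within or just above their range.

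**Figure D5:**
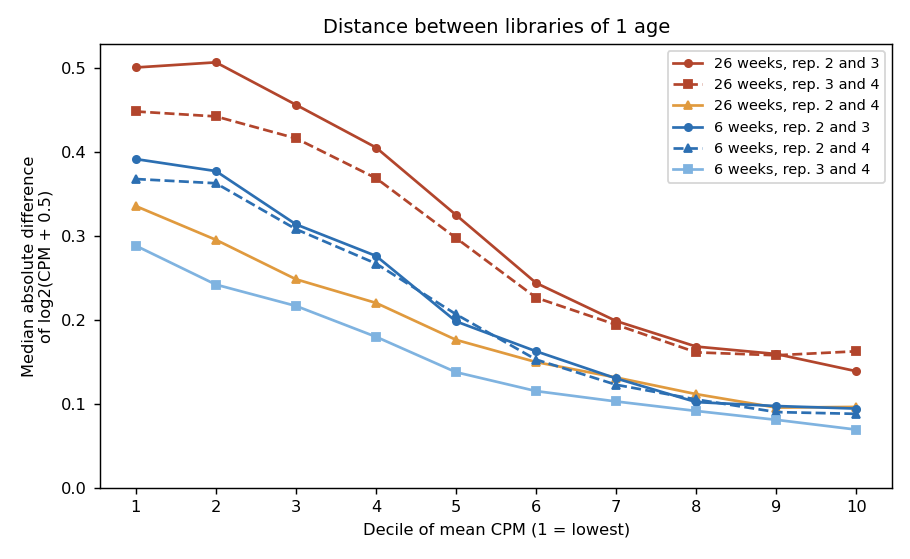
The vertical axis is the median over genes of the absolute difference in log2(CPM + 0.5) between 2 libraries of 1 age, and the horizontal axis is the decile of mean CPM. The 2 old pairs that include replicate 3 are the highest lines in all 10 deciles, while the third old pair runs among the 3 young pairs in the lowest 6 deciles, with 0.34 against 0.29 to 0.39 in the lowest decile.

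Gene lists differed in spread. Synaptic vesicle genes had a median SD of 0.34 at 26 weeks and 0.19 at 6 weeks, with the larger SD at 26 weeks in 29 of 46 genes (63.0%), against 66.8% of all genes tested. They differed by a median of 0.15 between old replicates 2 and 4, against 0.44 and 0.32 for the old pairs with replicate 3. The young pairs covered 0.10 to 0.34 on this list. Genes of splicing and RNA-binding proteins had a median SD of 0.17 at 26 weeks and 0.07 at 6 weeks, with the larger SD at 26 weeks in 53 of 61 genes. Between old replicates 2 and 4 the splicing genes differed by a median of 0.11, against 0.25 and 0.21 for the pairs with replicate 3. Cell cycle genes had 0.30 at 26 weeks and 0.12 at 6 weeks, and their old pair without replicate 3 still differed by 0.23, against 0.13 to 0.16 for the young pairs. These genes were lower at 26 weeks, and spread was larger at low level. Over all genes the same old pair differed by 0.22 in level decile 4 and 0.18 in level decile 5. The part of level in this spread was not tested. Myelin genes, with 0.33 and 0.16, differed by 0.46 between old replicates 2 and 4, and their summed level was 5223, 3150 and 3741 CPM at 26 weeks and 5785, 4806 and 4962 CPM at 6 weeks. Ribosomal proteins of the small subunit had a median SD of 0.08 at both ages, with the larger SD at 26 weeks in 13 of 27 genes.

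Single genes chosen for the largest excess of SD differed in which old library stood apart. Among named genes of at least 10 CPM, the excess of SD at 26 weeks was largest for MYBL2, a transcription factor of dividing cells, with 8.80, 12.7 and 1.55 CPM at 26 weeks and 18.4, 12.8 and 14.5 CPM at 6 weeks, where 26-week replicate 4 was low. DKK3, a secreted Wnt modulator, had 63.6, 12.6 and 42.0 CPM at 26 weeks and 14.8, 15.5 and 14.6 CPM at 6 weeks. Only 26-week replicate 3 was at the young level, and the log2 change was 1.52 ± 0.43 SE with it (edgeR adjusted p = 0.025) and 1.93 without it. That call was lost without any 1 of the other 5 libraries (adjusted p of 0.059 to 0.095). ncapg, a condensin subunit, had 4.03, 17.8 and 7.58 CPM at 26 weeks and 10.7, 9.93 and 10.8 CPM at 6 weeks, so that replicate 3 alone was above the young libraries. IFI27L1 had 22.9, 2.64 and 6.11 CPM at 26 weeks and 9.91, 17.4 and 20.3 CPM at 6 weeks.

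The 4 named genes of at least 10 CPM with the largest excess of SD at 6 weeks were chosen by the same rule. The globin gene ba1 had 219, 185 and 204 CPM at 26 weeks and 514, 283 and 292 CPM at 6 weeks, where replicate 2 was high. Its call (log2 change -0.72, edgeR adjusted p = 0.031) was lost without 26-week replicate 3 or 4. RSAD2, an interferon-induced antiviral gene, had 16.7, 15.2 and 15.2 CPM at 26 weeks and 7.03, 10.5 and 13 CPM at 6 weeks, but 9.30 CPM at 26 weeks and 40.5 CPM at 6 weeks in the replicate 1 pair. Its call (log2 change 0.76, adjusted p = 0.022) was lost without 26-week replicate 2 or 4 or 6-week replicate 2 or 3. ARHGAP31 had 15.2, 14.9 and 14.8 CPM at 26 weeks and 6.71, 5.37 and 9.10 CPM at 6 weeks. COG1, a Golgi tethering gene, had 28.2, 31.1 and 35.4 CPM at 26 weeks and 14.0, 25.9 and 26.0 CPM at 6 weeks, with its call (log2 change 0.66, adjusted p = 0.038) lost without 26-week replicate 4 or any 1 of the young libraries.

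Markers of tissues beside the brain were summed per library. Blood markers summed to 530 to 577 CPM at 26 weeks and 566 to 824 CPM at 6 weeks, with 6-week replicate 2 the highest, and 1 of the 13 marker genes was at 0 in all 6 libraries. Skeletal muscle markers summed to 636 to 677 CPM at 26 weeks and 782 to 844 CPM at 6 weeks, with 1 of 20 at 0. Retinal markers summed to 121 to 146 CPM at 26 weeks and 99.7 to 105 CPM at 6 weeks. Liver and plasma markers summed to 1452 to 2184 CPM at 26 weeks and 1609 to 1760 CPM at 6 weeks. Pituitary markers summed to 2079 to 2357 CPM at 26 weeks and 1783 to 1968 CPM at 6 weeks, most of it SCG2, which neurons also express. Of the 6 tested pituitary genes 3 were called higher, SCG2 among them, and 2 lower, with a median log2 change of 0.15. Over all genes tested 16.2% were called higher and 16.1% lower. The 2 called lower were the hormone genes GH1 and LHB. GH1, growth hormone, had 0.749, 0.317 and 1.47 CPM at 26 weeks and 27.2, 55.6 and 71.3 CPM at 6 weeks, and in the replicate 1 pair 8.04 CPM at 26 weeks and 0 CPM at 6 weeks. LHB, the beta chain of luteinizing hormone, had 0.375, 0 and 0.0815 CPM at 26 weeks and 12.6, 10.6 and 19.5 CPM at 6 weeks, and in that pair 0.251 CPM at 26 weeks and 0 CPM at 6 weeks. Both were called lower (log2 changes -5.70 ± 0.46 SE and -6.31 ± 0.53 SE, edgeR adjusted p = 0.00018 and 0.00021). The part of these tissues in the changes by length, level or gene list was not tested.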

How the data were processed

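Brain RNA of males at 26 and 6 weeks was deposited as raw gene counts and as RPKM values. According to the submitters, bcl2fastq 1.8.4, STAR 2.4.1d and featureCounts 1.4.6-p4 were used. The genome build, strand setting and treatment of shared reads are not given in the sources used here. The deposited RPKM values divided each gene by the total of another library in 87.5% of cases, a result of totals recycled down the table. With recycled totals the transcript length implied by count and RPKM had a median coefficient of variation of 0.00329% over 12794 genes, against 17.6% with own totals. The lengths implied in this way were used, and RPKM was recomputed. All columns of both tables matched a sample. The footprint values were not used here.

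Genes with a mean CPM of at least 1 over replicates 2 to 4 were tested with edgeR 4.0.16 in R 4.3.3 (TMM, quasi-likelihood, Benjamini-Hochberg adjustment). The fit was tested on simulated data. Library measures were compared by exact two-sided permutation (scipy 1.17.1), with log2(CPM + 0.5). Alternatives were own totals, upper quartile and RLE factors, other filters, DESeq2 1.42.0, the replicate number as a block, all 8 libraries, other limits and pseudocounts, and each library left out.

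Gene names came from ID and name columns of the study's supplementary tables, which are partial and in part ranked by age tests in other fish, so named genes are a selection (5155 of the 16286 tested, 31.7%). No sequence was used. Named genes are, by rule, the 8 largest rises and falls among called genes whose CPM did not overlap and whose sign was the same in the replicate 1 pair, the 3 lowest p per direction in the longest and shortest decile, the 10 highest levels, the 4 largest differences of SD each way, and the 3 lowest p per gene list. Not every gene under the rule is described, and some are not reported here. Members, gene lists and comparisons were chosen with earlier results of these data known. Separate count intervals were not computed. Between 9461792 and 13771769 counts per library limit the precision of low genes.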

Additional observations from a re-analysis of the deposited data

Results flagged for a closer look

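In 4 measures, the 6-week replicate 1 library lay far from the other 3 libraries of its age (Dixon's test at 95%, by its gap to the nearest of them). Its longest decile of genes took 23.4% of counts, against 15.5% to 16.0% in the other 3. Its shortest decile took 6.24%, against 10.6% to 11.1%. Its length contrast was 1.14, against -0.22 to -0.15, and its mean transcript length weighted by counts was 5317 bases, against 4245 to 4303 bases. In all, 28 sets of 4 libraries were looked at, and chance alone marks about 1 in 20. The 4 measures marked all follow transcript length, so they are not independent of each other. The length contrast was also taken from gene means of replicates 2 to 4, which leave replicate 1 out. The 26-week replicate 1 library stood on the same side in each measure, with 22.7% and 7.53% of counts, a contrast of 0.98 and a mean length of 5166 bases, but 26-week replicate 3 lay between it and the other 2.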

How the results depend on the processing

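Against 5263 calls with all 6 libraries, fits with 1 library left out gave 2073 to 5014. All 8 libraries with no term for replicate 1 gave 53, and with such a term 4188, of which 61.2% were higher. The median log2 change was -0.13 with own totals, -0.063 with upper quartile factors, and 0.055 and 0.045 over all 8 libraries with and without the term. The level contrast of 0.43 was 0.24 with no filter, 0.22 and 0.24 over all 8 libraries with and without the term, and 0.12 by RPKM. The length contrast kept its direction, at 0.29 to 0.52 with 1 library left out. Genes gained were 0 to 1 and genes lost 1 to 9 with 1 library left out. With at least 1 count 28 were gained and 57 lost, and across 1 CPM, a limit chosen after seeing the data, 49 and 210. Genes lost were 0 with at least 10 counts, with under 0.1 CPM against 1 CPM, and with all 4 libraries per age. The spread ratio ran from 0.813, without 26-week replicate 3, to 2.15, without 6-week replicate 2. Equal spread would give 0.81 and 1.23 there, since SDs over 2 and 3 libraries are set against each other, so 0.813 is no reversal. Of 107 named genes called, 14 lost the call without 1 library and 0 changed direction in those fits. RSAD2 turned to -0.16 over all 8 libraries with no term. Why these values moved was not tested.

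Over replicates 2 to 4, deviations from the mean of each age correlated at -0.29, -0.27 and 0.18 between libraries with the same number. With different numbers they correlated at -0.19 to 0.36. With 3 libraries per age these deviations are tied to each other, so they cannot decide whether the replicate numbers pair the samples. The 2 replicate 1 libraries differed by a median of 0.28 from each other and by 0.67 to 0.82 from the other libraries. With the replicate number as a block, 3232 genes were called.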
